A study of Caenorhabditis elegans with 16 samples.

Results

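Well-fed *alfa-1(ok3062)* mutant worms were compared with well-fed worms of the wild-type strain N2, on 4 arrays for each strain, 8 of the 16 arrays of the series. All 8 were whole worms of the L3 stage by the labels and of the L3/L4 stage by the methods, raised on *E. coli* OP50. The labels name the mutant strain IW313 and the wild-type strain IW314, where the methods name RB2260 and N2, and the source field names IW314 for all 16 arrays. *ok3062* is a deletion with a small insertion at exons 3 and 4, and the mutant was backcrossed to N2. How much other DNA of the original mutant strain it still carries, on any chromosome, was not tested. By the labels the well-fed worms were kept for 6 hr in M9 buffer with food, whereas the methods have them frozen at once after rinsing. The other 8 arrays were of the same strains after 6 hr in M9 buffer without food, and they share the estimate of each gene's spread with the well-fed arrays in the fit, so that they bear on every standard error and p-value below but on no well-fed mean or fold change. The question was which transcripts differ with the loss of *alfa-1* when food is present.

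ALFA-1 is the worm orthologue of human C9orf72, a protein with DENN domains. In mammals C9orf72 forms a complex with SMCR8 that acts at the lysosome. On amino acid signals the Rag GTPases bring the mTOR kinase and the transcription factor TFEB to the lysosome. There mTOR phosphorylates TFEB, which keeps TFEB in the cytoplasm. HLH-30, the worm orthologue of TFEB, enters the nucleus in starved adult worms. There it turns on genes for autophagy and for lysosomal lipases, the enzymes that release fatty acids from stored fat. In starved L1 larvae the study saw HLH-30 in the cytoplasm of N2 and in nuclei of *alfa-1(ok3062)*. In well-fed L1 larvae it was in the cytoplasm of both strains.

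Each gene was read on 1 probe set as a deposited log2 expression value, and limma was fitted to 25498 genes. Genes are said to have passed where the adjusted p was under 0.05, and a nominal p is one before adjustment. In well-fed worms 1 gene was higher in the mutant, 0.00392% of the genes tested, and 22 were lower, 0.0863%. The single rise was *hmg-11*, and *pho-4*, *alfa-1* and the pseudogene *fbxa-162* had the greatest falls. Of the 23 genes 10 differed by at least 2-fold, and their median absolute log2 fold change was 0.91, against 0.0789 over all genes tested. The 4 mutant arrays did not overlap the 4 N2 arrays in any of the 23 genes, which was also so in 1085 of all genes, or 4.26%. At a nominal p under 0.05, 596 genes were higher and 607 lower, together 4.72%.

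**Figure D1:**
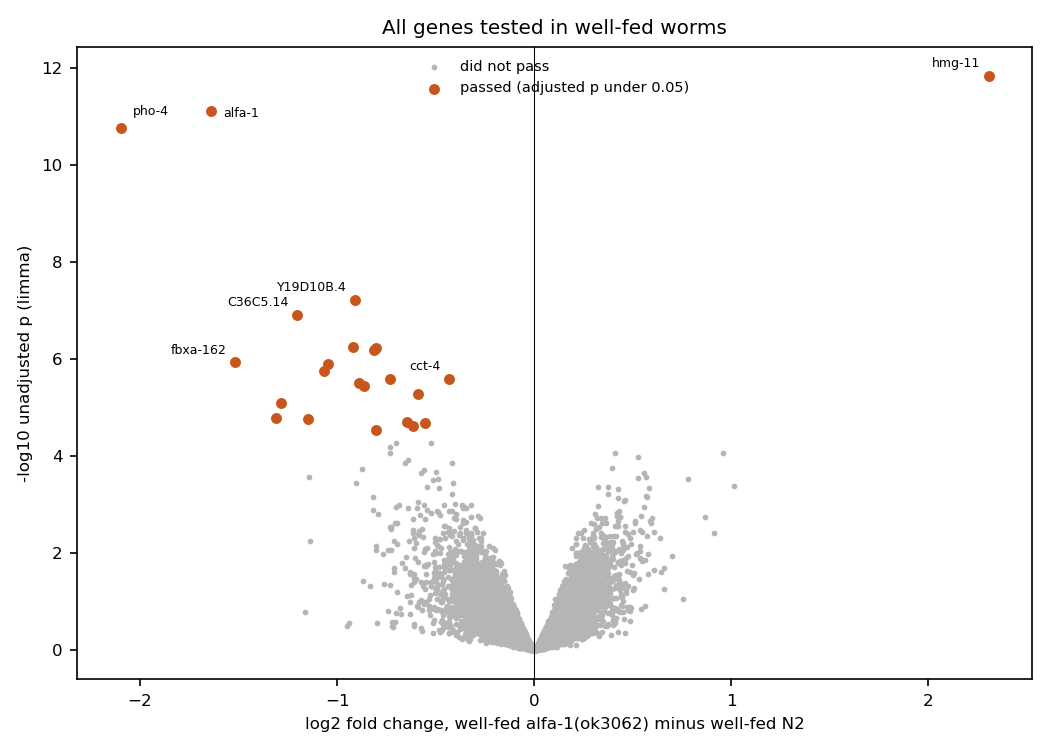
Each point is 1 of the 25498 genes, with the log2 fold change of the well-fed mutant over well-fed N2 on the x axis and -log10 of the nominal limma p on the y axis. The 23 genes that passed are orange, with 1 on the right and 22 on the left.

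The value of *alfa-1* itself checks the labels. It read 9.21, 9.39, 9.11 and 9.28 on the N2 arrays and 7.62, 7.63, 7.59 and 7.57 on the mutant arrays, in log2 units and in the order of their replicate numbers, as are all values per array below. The groups stood 1.48 apart at their nearest arrays, and every array had the level its label calls for. Means were 9.25 for N2 (SD 0.118, n = 4) and 7.60 for the mutant (SD 0.0242, n = 4), and the log2 fold change was -1.64 (standard error 0.0926, limma adjusted p = 1e-07), or 3.12-fold lower. Which part of the transcript the probes cover is not known here, so the level left in the mutant is that of an unknown part of it.

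The gene that rose, *hmg-11*, is named for the high mobility group proteins, which bind DNA in chromatin. Its log2 values were 4.84, 4.70, 4.73 and 4.61 in N2 and 7.09, 6.87, 7.04 and 7.11 in the mutant. The lowest mutant array stood 2.03 above the highest N2 array. The log2 fold change was 2.31 (standard error 0.116, limma adjusted p = 3.74e-08), a 4.95-fold rise from a level below the median gene of N2. Of the 22 genes in the list of high mobility group and linker histone genes, *hmg-11* was the 1 that passed. The next by p, *hmg-6*, had a log2 fold change of -0.24 with overlapping arrays and did not pass (limma adjusted p = 1). *sdc-3* encodes a zinc finger protein that brings the dosage compensation complex to the X chromosomes of hermaphrodites. Its log2 values were 8.54, 8.65, 8.78 and 8.69 in N2 and 8.05, 8.05, 7.98 and 7.67 in the mutant, all 4 below N2. The log2 fold change was -0.73 (standard error 0.102, limma adjusted p = 0.00507). Its partner genes *sdc-1* and *sdc-2* had log2 fold changes of 0.31 and 0.24, which did not pass (limma adjusted p = 0.903 and 1), and 1 of the 12 measured genes of dosage compensation passed, *sdc-3* itself. The 4908 X-linked genes had a median log2 fold change of 0.000659, and 0 of them passed, with 123 higher and 101 lower at a nominal limma p under 0.05.

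Among genes named as acid phosphatases and as lipases, *pho-4* and *lipl-1* fell. *pho-4* is one of the *pho* genes, named as acid phosphatases. The N2 arrays had log2 values of 8.05, 8.19, 8.22 and 8.31, and the mutant arrays 6.08, 6.38, 6.07 and 5.83. The strains stood 1.67 apart at their nearest arrays, and the log2 fold change was -2.10 (standard error 0.125, limma adjusted p = 1.45e-07), or 4.28-fold lower. No other gene of the 19 in the acid phosphatase list passed, and the next by p, *pho-8*, had a log2 fold change of -0.42 (limma adjusted p = 1). *pho-1*, the gene of an intestinal acid phosphatase, stayed between 9.81 and 10.12 in N2 and between 9.73 and 9.98 in the mutant. *lipl-1* encodes a lysosomal lipase and is a known target of HLH-30. Its log2 values were 7.41, 7.48, 7.73 and 7.37 in N2 and 6.36, 6.88, 6.96 and 6.58 in the mutant. All mutant arrays were lower, with 0.411 between the groups, and the log2 fold change was -0.80 (standard error 0.139, limma adjusted p = 0.0316). That call was the weakest of the 23. It held when mutant replicate 3 was left out, and was lost when any other well-fed array was left out, with an adjusted p of at most 0.157 and log2 fold changes between -0.89 and -0.69.

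The other lipases fell on both sides of 0. Of 28 lipase genes 1 passed, 5 were lower and 1 higher at a nominal limma p under 0.05 (21.4%, against 4.72% of all genes), and their median log2 fold change was -0.00336, against 0.00384 over all genes. *lips-6*, a lipase-related gene, had log2 values of 7.91, 8.24, 7.91 and 8.05 in N2 and 6.87, 7.23, 6.53 and 6.91 in the mutant. These did not overlap, yet the log2 fold change of -1.14 did not pass (standard error 0.244, limma adjusted p = 0.166), and it did pass in a fit of the 8 well-fed arrays alone. *lips-5* and *lips-15* had log2 fold changes of -0.66 and -0.42, *lips-11* one of -0.64, and *lips-14* one of 0.45, and in none of these did the strains overlap or the adjusted p reach the threshold. The lysosomal lipases *lipl-2*, *lipl-3* and *lipl-5* had log2 fold changes of 0.19, 0.08 and -0.06, and their arrays overlapped between the strains. *asm-3* and *asm-2*, which encode acid sphingomyelinases, had log2 fold changes of -0.69 and -0.42 without overlap, and did not pass (limma adjusted p = 0.382 and 0.414). In the 25 genes of sphingolipid metabolism 4 were lower and 0 higher at a nominal p under 0.05 (16%), the other 2 being *asah-2*, for an acid ceramidase, and *cgt-1*, for a ceramide glucosyltransferase. None of 43 beta-oxidation genes and none of 23 genes of fatty acid synthesis, desaturation and elongation passed, with 2 and 0 at a nominal p under 0.05. *fat-7*, a stearoyl-CoA desaturase gene, had values of 9.80, 9.78, 9.56 and 9.62 in N2 and 8.95, 9.31, 9.18 and 9.29 in the mutant. Its log2 fold change of -0.51 had a 95% confidence interval from -1.18 to 0.17 in the fit of all 16 arrays, whose spread for this gene is mostly that of the starved N2 arrays (SD 0.983, n = 4).

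Of the genes of this pathway examined singly, *alfa-1* and the lipase gene *lipl-1* passed and the regulators below did not. *hlh-30* had log2 values of 10.08, 10.28, 10.22 and 10.16 in N2 and 10.29, 10.06, 10.10 and 10.13 in the mutant, and the groups overlapped. The 95% confidence interval of its log2 fold change ran from -0.19 to 0.12. The adjusted p of limma was 1 for it and for each gene that follows. The intervals ran from -0.32 to 0.20 for *smcr-8*, the partner of *alfa-1*, from -0.14 to 0.14 for *let-363*, the mTOR kinase, from -0.19 to 0.08 for *daf-15*, its raptor subunit, from -0.18 to 0.10 for the Rag GTPase *raga-1* and from -0.23 to 0.14 for *ragc-1*. For the insulin receptor *daf-2* the interval ran from -0.17 to 0.23, and for the FOXO factor *daf-16* from -0.17 to 0.12. The autophagy genes *atg-9*, *lgg-1* and *sqst-1* had intervals of -0.13 to 0.19, -0.19 to 0.15 and -0.64 to 0.10. A transcript level says nothing of where HLH-30 sits in the cell. In the list of 33 autophagy genes 0 passed and 1 was higher at a nominal p under 0.05, in the 36 genes of the V-ATPase and lysosomal membrane 0 passed and 1 was lower, and in the 27 genes of TORC1, Rag GTPases and AMPK *alfa-1* alone passed.

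**Figure D2:**
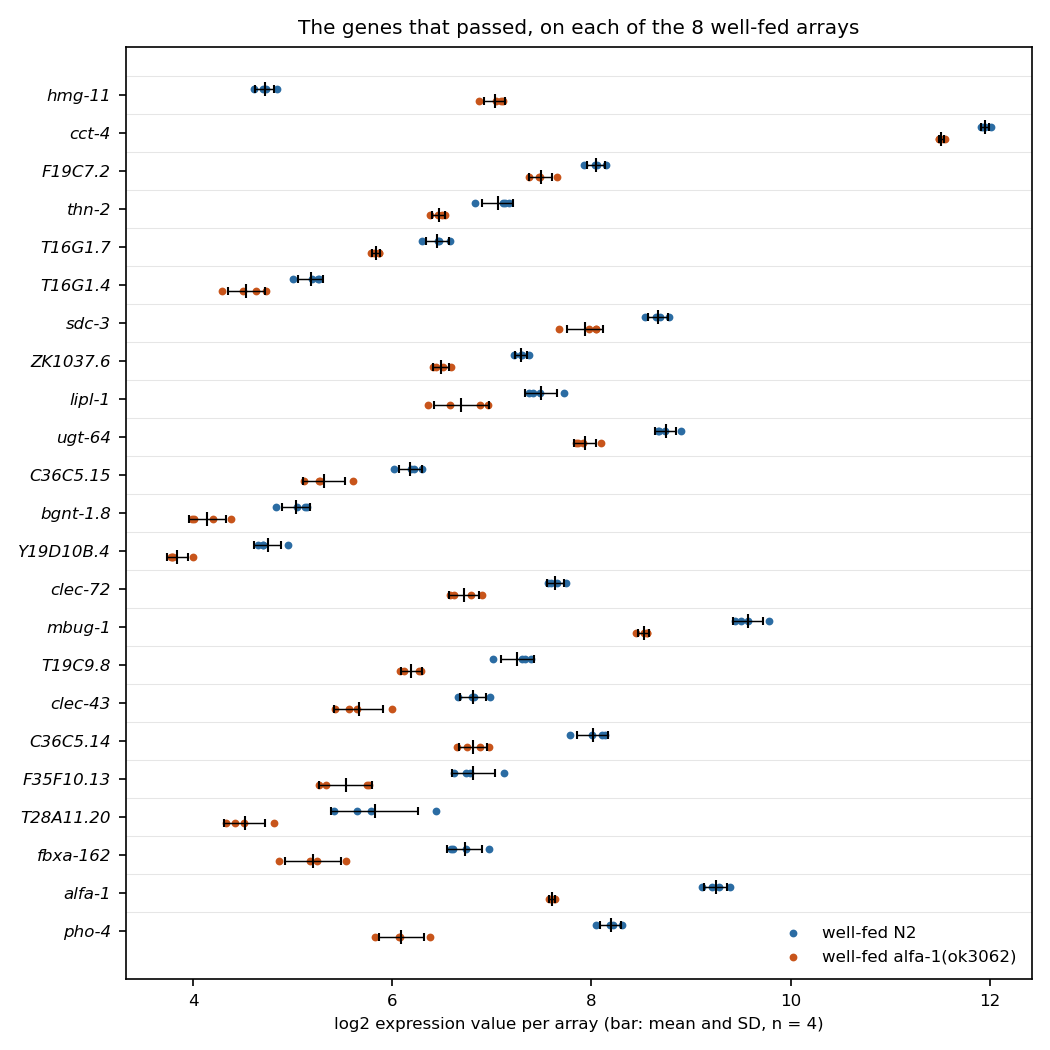
Rows are the 23 genes that passed and the x axis is the log2 expression value, with 1 point for each of the 4 well-fed N2 arrays (blue) and the 4 well-fed mutant arrays (orange) and a bar for the mean and SD. The colours do not overlap in any row, and *hmg-11* is the only row with orange on the right.

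C-type lectins and thaumatins, families that hold genes of the response to microbes, each had members that fell. *clec-72* had log2 values of 7.75, 7.59, 7.65 and 7.56 in N2 and 6.90, 6.79, 6.62 and 6.58 in the mutant. The groups stood 0.665 apart, and the log2 fold change was -0.92 (standard error 0.114, limma adjusted p = 0.00205). *clec-43* had values of 6.66, 6.80, 6.98 and 6.82 in N2 and 5.65, 5.43, 6.0 and 5.57 in the mutant, a log2 fold change of -1.15 (limma adjusted p = 0.0235). It kept its call only without mutant replicate 3 among the 8 arrays left out in turn. Of 247 C-type lectin genes, 2 passed and both were lower, and 30 were lower and 6 higher at a nominal limma p under 0.05, or 14.6% against 4.72% of all genes. The arrays did not overlap in 26 lower and 3 higher lectins, against 536 lower and 549 higher of all 25498 genes (4.26% together). The lectins had a median log2 fold change of -0.0569, against 0.00384 over all genes. *clec-28*, *clec-61*, *clec-42* and *clec-205* had log2 fold changes between -0.73 and -0.54 and did not pass, and *clec-140* had 0.56 (limma adjusted p = 0.147). *thn-2*, a thaumatin-family gene, had values of 6.83, 7.17, 7.11 and 7.13 in N2 and 6.50, 6.53, 6.46 and 6.38 in the mutant. Its log2 fold change was -0.59 (limma adjusted p = 0.00849), and the adjusted p was 0.0513 without mutant replicate 4 and 0.0565 in a fit of the 8 well-fed arrays alone. In the 93 lysozyme, saposin, thaumatin and antimicrobial genes *thn-2* was the 1 that passed. In that list 7 were lower and 1 higher at a nominal p under 0.05 (8.6%, against 4.72% of all genes).

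Of genes for enzymes that make foreign compounds soluble, *ugt-64* fell. It is a UDP-glucuronosyltransferase gene and had log2 values of 8.68, 8.67, 8.90 and 8.74 in N2 and 7.85, 7.92, 8.10 and 7.87 in the mutant. The groups stood 0.568 apart, and the log2 fold change was -0.81 (standard error 0.102, limma adjusted p = 0.00205). Of 67 genes of this family *ugt-64* passed, with 6 lower and 3 higher at a nominal p under 0.05 (13.4%, against 4.72% of all genes), and *ugt-44* had -0.57 (limma adjusted p = 0.147). The cytochrome P450 gene *cyp-34A2* missed the threshold with a log2 fold change of -0.70 (limma adjusted p = 0.0549), and of 75 genes of that family 7 were lower and 1 higher at a nominal p under 0.05 (10.7%). Of 48 glutathione S-transferase genes 5 were higher and 0 lower at that threshold (10.4%) and 0 passed, *gsto-1* having a log2 fold change of 0.59 (limma adjusted p = 0.504).

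Of genes for protein folding and turnover, *cct-4* and *fbxa-162* fell. CCT is a ring of 8 different subunits that folds actin and tubulin, and *cct-4* encodes one of them. Its log2 values were 11.91, 11.93, 12.01 and 11.95 in N2 and 11.49, 11.55, 11.53 and 11.49 in the mutant, with 0.357 between the groups. The log2 fold change of -0.43 was the smallest in size of the 23 (standard error 0.0605, limma adjusted p = 0.00507), or 1.35-fold lower. In a fit of the 8 well-fed arrays alone *cct-4* just missed the threshold (limma adjusted p = 0.0504). The other subunit genes, *cct-1* to *cct-3* and *cct-5* to *cct-8*, had log2 fold changes between -0.05 and 0.07, with overlapping arrays and an adjusted p of 1 for each. *hsp-70*, a heat shock gene, missed the threshold with a log2 fold change of -0.73 (limma adjusted p = 0.0775). The proteasome list of 33 genes had 0 at a nominal p under 0.05. *fbxa-162* carries an F-box name, as adaptors of ubiquitin ligases do, and is a pseudogene in RefSeq. Its log2 values were 6.97, 6.74, 6.59 and 6.61 in N2 and 5.54, 5.18, 5.25 and 4.86 in the mutant, 1.05 apart. The log2 fold change was -1.52 (standard error 0.200, limma adjusted p = 0.00327). Among 442 genes with F-box, BTB or MATH names 22 were lower and 3 higher at a nominal p under 0.05, in all 5.66% against 4.72% of all genes, and *fbxa-162* was the 1 that passed.

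**Figure D3:**
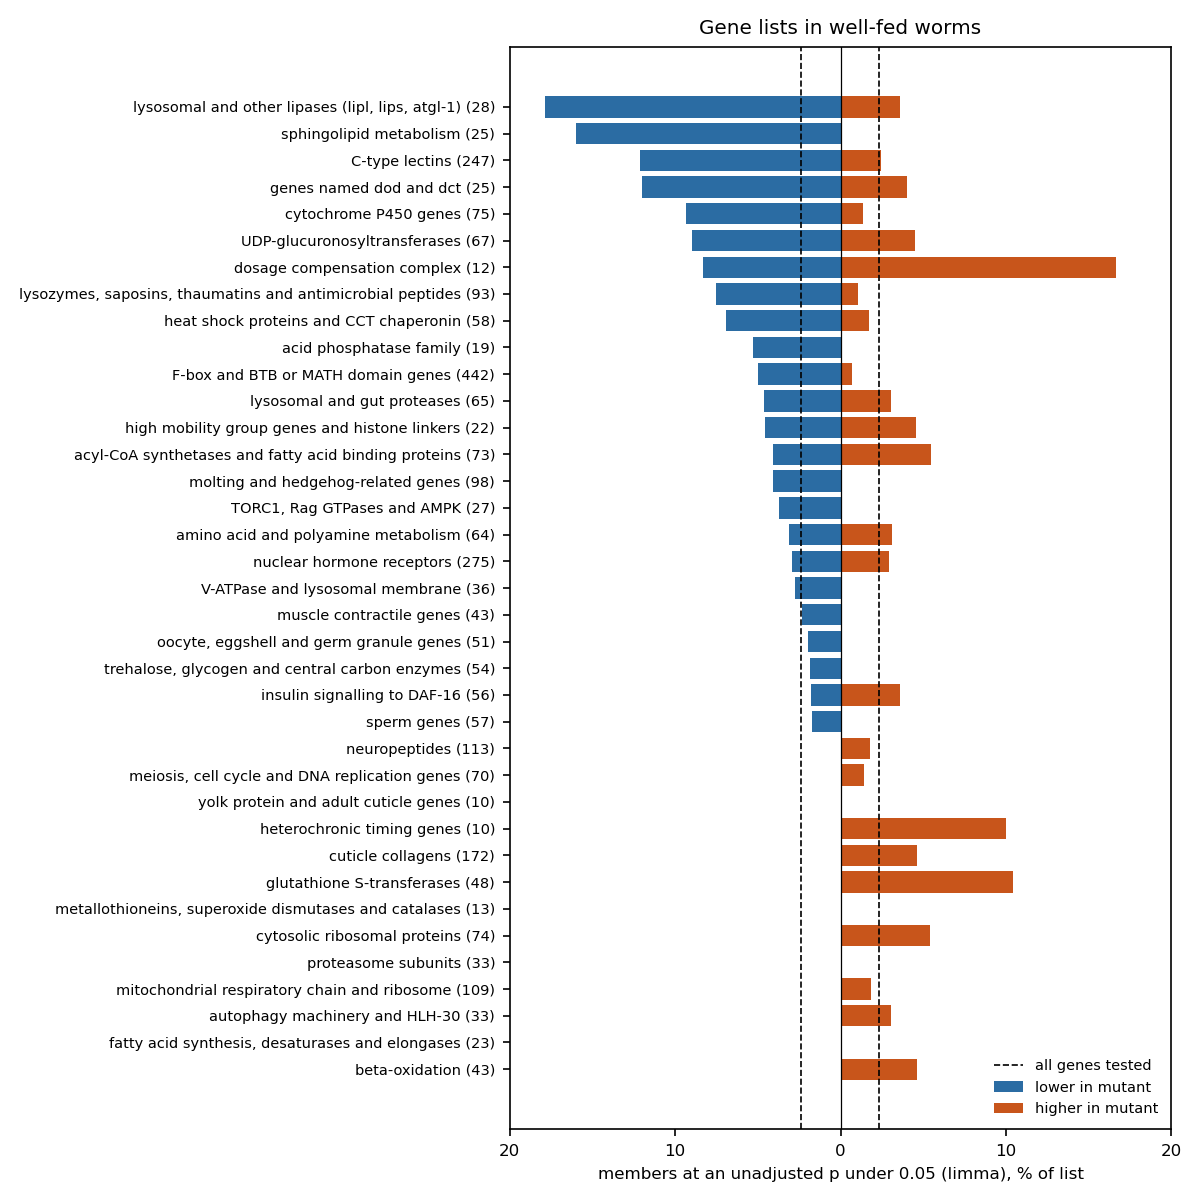
For each of 37 gene lists, with its number of genes, bars give the share of members at a nominal limma p under 0.05 in well-fed worms, lower in the mutant to the left and higher to the right, and dashed lines give the same share of all genes tested. C-type lectins reached 30 of 247 genes lower and 6 higher, and lipases 5 of 28 lower and 1 higher.

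The other genes that fell have sequence names or little annotation. *Y19D10B.4*, a pseudogene in RefSeq, had log2 values of 4.70, 4.65, 4.70 and 4.95 in N2 and 3.79, 4.0, 3.78 and 3.80 in the mutant, a log2 fold change of -0.91 (limma adjusted p = 0.000383). *C36C5.14* had values of 8.01, 8.14, 8.11 and 7.79 in N2 and 6.88, 6.65, 6.97 and 6.75 in the mutant, a log2 fold change of -1.20 (limma adjusted p = 0.000626). *mbug-1* had values of 9.50, 9.57, 9.78 and 9.44 in N2 and 8.56, 8.45, 8.53 and 8.56 in the mutant, a log2 fold change of -1.04 (limma adjusted p = 0.00327). In each of these genes every mutant array was lower than every N2 array, by 0.657 or more. *ZK1037.6*, *T19C9.8* and *C36C5.15* had log2 fold changes of -0.80, -1.07 and -0.86 (limma adjusted p of 0.00205, 0.00414 and 0.00603). *bgnt-1.8*, named as a glycosyltransferase gene, went from 5.03 ± 0.144 to 4.14 ± 0.183 (SD, n = 4 each), a log2 fold change of -0.89 (limma adjusted p = 0.00571) between levels that both lie below the median N2 level of all genes, 5.87. *F35F10.13*, *T28A11.20*, *T16G1.4*, *T16G1.7* and *F19C7.2* had log2 fold changes between -1.31 and -0.55 and adjusted p-values between 0.0122 and 0.0283. The spread of *T28A11.20* in N2 was the widest of these, with values of 5.65, 5.79, 5.42 and 6.44. These last 5 genes lost their call when 1 of several arrays was left out, *F35F10.13* for 3 of the 8 arrays and each of the others for 6 or 7, with adjusted p-values of at most 0.146.

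Just outside the threshold lay *C07G3.8*, *cyp-34A2*, *B0462.5*, *C26E1.5*, *hsp-70* and the ligand-gated ion channel gene *lgc-35*, with adjusted p-values between 0.0549 and 0.0775. *C26E1.5*, a noncoding RNA gene, was higher in the mutant, with log2 values of 5.59, 4.92, 5.16 and 5.17 against 4.22, 4.16, 4.29 and 4.34 in N2. *lgc-35* was higher too, with a log2 fold change of 0.41. The largest rises and falls that missed the threshold had a wide spread in 1 or more of the 4 groups of the fit. *Y48E1B.8*, *C26E6.16* and *Y37B11A.5* had log2 fold changes of 1.01, 0.91 and 0.87, and *C25F9.11* one of -1.14. The widest groups of *C25F9.11* were the starved ones (SD 0.756 in N2 and 0.748 in the mutant), against 0.374 and 0.131 in the well-fed. *F41E7.16* and *F41E7.11* had -1.16 and -0.95, and N2 replicate 3 stood far below the other N2 arrays in both, at 3.61 and 4.66 where the others had at least 5.36 and 7.01.

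No marker of a stage or tissue passed. The 9 sets of markers for intestine, muscle, pharynx, neurons, hypodermis, germ line, sperm, adult and larval stages held 43 measured genes, of which 0 passed and 0 reached a nominal limma p under 0.05. In each set the ranges of the array means overlapped. The 7 oocyte, yolk and adult cuticle markers had a median level of 11.8 in both strains. Each was at 8.94 or more in N2, against a median of 5.87 over all genes. Whether the worms were past the L3 or L3/L4 stage given for them was not tested. Larval and molt markers had a median log2 fold change of 0.108. *hbl-1*, a heterochronic gene, had a log2 fold change of 0.36 (limma adjusted p = 0.504). Of 172 collagen genes 8 were higher and 0 lower at a nominal p under 0.05 (4.65%, near the 4.72% of all genes), with 0 passing. Fewer cells of a type and less RNA per cell cannot be told apart in whole worms.

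The 23 genes lie on 4 of the 5 autosomes, with 12 on chromosome V, 6 on II, 4 on IV and 1 on I. Chromosome V holds 23.9% of the genes tested, II 16.3%, IV 15.3% and I 12.8%. *alfa-1* lies on chromosome II, as do *hmg-11*, *pho-4*, *cct-4*, *fbxa-162* and *clec-43*. The 3 genes with the smallest p are thus on the chromosome of the deletion, 1 of them being the deleted gene *alfa-1* itself. Other differences between the strains, on this or any other chromosome, and the loss of *alfa-1* cannot be told apart in 1 mutant strain. In the order of tested genes *cct-4* was 210 genes from *alfa-1* on one side, and *pho-4*, *hmg-11*, *fbxa-162* and *clec-43* were 842, 1035, 1842 and 1986 genes away on the other. Among the 50, 100 and 200 nearest genes on each side of *alfa-1*, 0 passed, and 4, 10 and 18 were at a nominal p under 0.05, that is 4%, 5% and 4.5%, near the 4.72% of all genes.

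Several called genes had neighbours that differed in the same direction, seen after the values were known. Over all 25498 genes tested, 607 were lower and 596 higher at a nominal limma p under 0.05, together 4.72%. Of the 10 nearest tested genes of *mbug-1*, 5 on each side, 6 were lower at a nominal limma p under 0.05, among them *dod-22* and *dod-17*, named for lying downstream of DAF-16, with log2 fold changes of -0.48 and -0.55, and *F55G11.2* with -0.73. The median log2 fold change of these 10 neighbours was -0.365. *F55G11.2* had log2 values of 10.46, 10.53, 10.68 and 10.27 in N2 and 9.88, 9.59, 9.74 and 9.79 in the mutant, without overlap, and did not pass (limma adjusted p = 0.558), though it and *bath-26* passed in a fit of the 8 well-fed arrays alone. Around *fbxa-162* the 4 lower genes were *bath-46*, *bath-26* and *bath-47*, which carry BTB and MATH domain names, and *fbxa-166*, with log2 fold changes between -0.73 and -0.38. Around *T28A11.20* they were *T28A11.19*, *T28A11.5* and *T28A11.4*, between -0.87 and -0.74. *clec-72* had *clec-71* and *clec-174* beside it, with -0.58 and -0.80. Beside *hmg-11*, the gene that rose, *clec-140* and *T05A7.1* were higher, with 0.56 and 0.22. Near *ugt-64*, *C07G3.8* was lower with -0.52 and *srbc-32* higher with 0.31. *C36C5.14* and *C36C5.15*, both called, have 1 tested gene between them, *C36C5.4*, whose log2 fold change was -0.12. *T16G1.7* and *T16G1.4*, both called, have *T16G1.6* and *T16G1.5* between them, with -0.59 and -0.35, and *lipl-1* lies before *T16G1.7* with 6 tested genes between. *F35F10.13* and *Y19D10B.4* each had 2 neighbours lower and 1 higher at a nominal p under 0.05, and *thn-2* had 0 lower and 1 higher. *pho-4*, *cct-4*, *sdc-3*, *lipl-1*, *T19C9.8*, *F19C7.2*, *clec-43* and *alfa-1* had 0 neighbours of the 10 at a nominal p under 0.05. Probes of near-identical family members can share RNA, and how far these do was not tested.

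**Figure D4:**
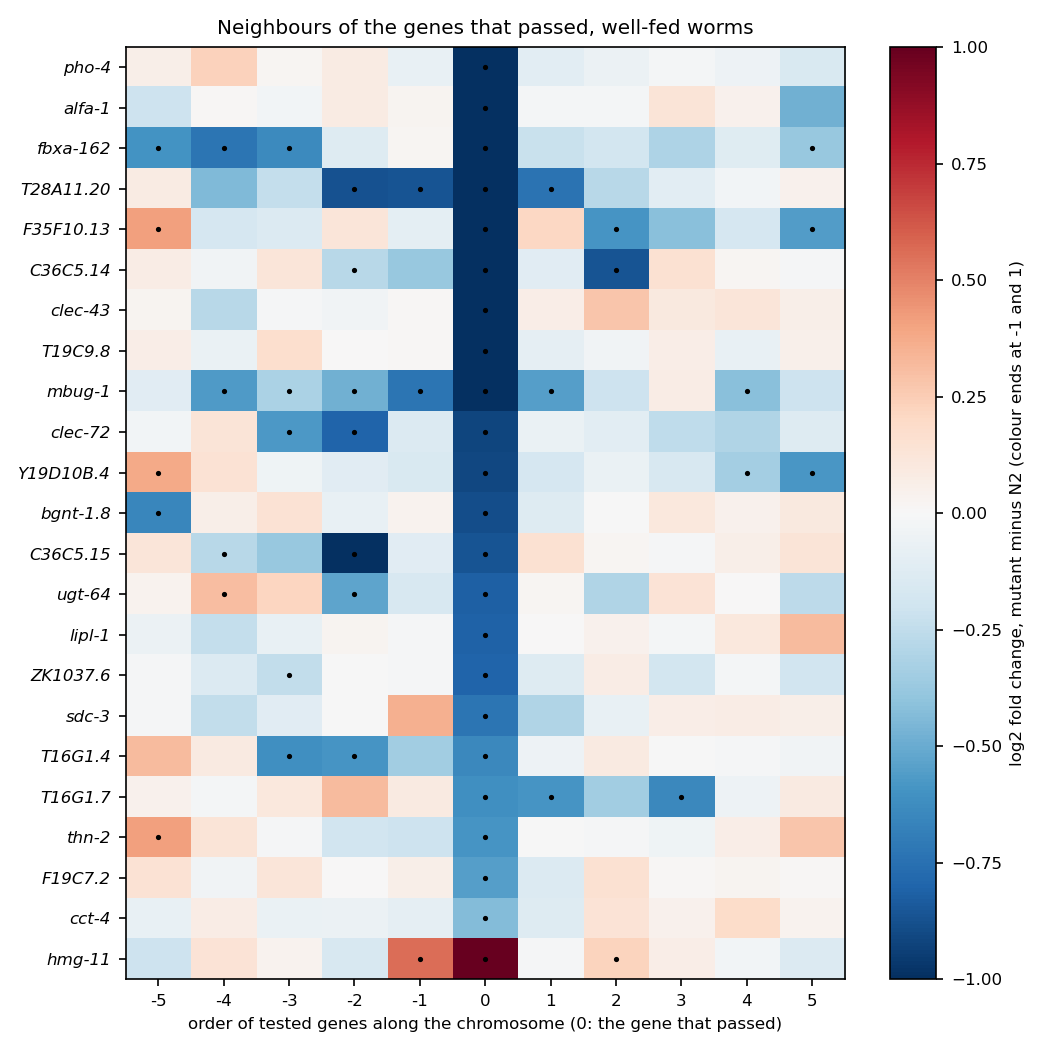
Rows are the 23 genes that passed, columns the order of tested genes along the chromosome with the gene itself at 0, and colour the log2 fold change of the well-fed mutant over N2, where dots mark a nominal limma p under 0.05. Blue neighbours stand beside *mbug-1* (6 of 10 genes) and *fbxa-162* (4 of 10), and none is dotted beside *pho-4* or *cct-4*. A red neighbour, *clec-140*, stands beside *hmg-11*.

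The starved arrays gave fold changes of the same genes in other samples, although the methods divided worms of 1 collection into tubes and the fit gave both comparisons 1 spread per gene. In starved worms 24 genes passed, 0.0941% of those tested. Of the 23 genes called in well-fed worms, 12 also passed there in the same direction, 10 had the same sign and did not pass, and *T28A11.20* had a log2 fold change of 0.01. The arrays of the strains did not overlap in starved worms in 19 of the 23. How often this was so over all genes in starved worms was not counted, nor how often the conditions shared a sign. The 19 and the shared signs thus have no background. *hmg-11* had log2 fold changes of 2.31 with food and 2.48 without, *pho-4* -2.10 and -2.09, *clec-72* -0.92 and -1.0, *sdc-3* -0.73 and -0.80, *cct-4* -0.43 and -0.34, and *lipl-1* -0.80 and -0.92. The difference between conditions was tested as an interaction, and 0 genes passed (smallest limma adjusted p = 0.735, with 1641 genes at a nominal p under 0.05).

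Of the 23 genes 7 reached a nominal interaction p under 0.05, as did 1641 of all 25498 genes tested. Because the 23 genes were chosen by the well-fed values that also enter the interaction, the choice itself favours smaller fold changes without food. *ugt-64* had the greater fall in starved worms, from 8.41, 8.54, 8.49 and 8.52 in N2 to 7.21, 6.68, 7.05 and 6.94 in the mutant, a log2 fold change of -1.52 against -0.81. In *fbxa-162* both strains were higher without food, at 8.58 ± 0.491 in N2 and 8.26 ± 0.197 in the mutant (SD, n = 4 each), and the log2 fold change was -0.33 against -1.52. In *Y19D10B.4* and *bgnt-1.8* the N2 level was lower without food, at 3.96 and 3.86, near that of the mutant, and the log2 fold changes were -0.18 and -0.12. *T28A11.20* without food had 5.73 in N2 (SD 0.323) and 5.74 in the mutant (SD 0.341). *C36C5.14* and *ZK1037.6* had smaller falls without food, with log2 fold changes of -0.61 against -1.20 and -0.47 against -0.80. After limma's adjustment the interaction p was 0.735 for each of these 7 genes.

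**Figure D5:**
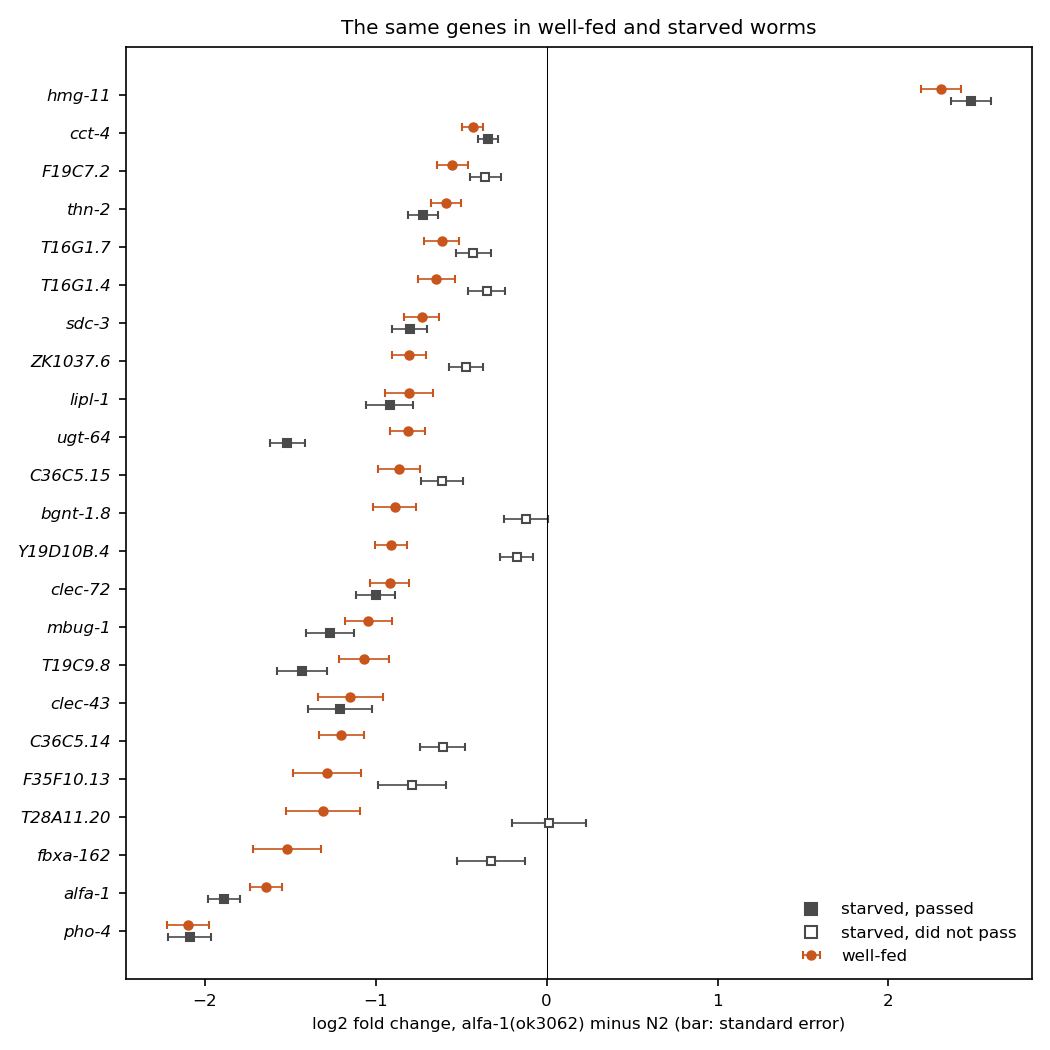
Rows are the 23 genes that passed in well-fed worms, with the log2 fold change of the mutant over N2 and its standard error in well-fed (orange circles) and starved worms (squares, filled where the gene passed). In 12 rows the square is filled, and *T28A11.20* has its square at 0.01.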

How the data were processed

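Total RNA of whole worms was measured on 16 Affymetrix *C. elegans* arrays, 4 per group. Log2 expression values were deposited per probe set. The authors made them with RMA and Partek according to the submitters' processing notes, with versions not given in the sources used here. Because RMA brings the arrays to 1 distribution, a change shared by most genes would be removed before deposit. Array medians lay between 5.80 and 5.85, and the correlation of a well-fed array with its own group between 0.9938 and 0.9951. Precision is limited by the 4 arrays per group.

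Of 29317 probe sets, 25546 were paired with 1 gene in the platform table, 646 with several, and 3125 were not listed. By gene ID 25495 matched RefSeq (assembly WBcel235), used for names and gene order. For 37 genes with several probe sets the one with the highest mean was used. Limma 3.58.1 in R 4.3.3 was fitted to 4 group means over the 16 arrays (12 residual degrees of freedom), which share 1 estimate of spread per gene, with Benjamini-Hochberg adjustment over 25498 genes. The median spread was 0.139 and 0.135 in the well-fed groups and 0.171 and 0.168 in the starved. The fit was also run on simulated data, and no result of that run is given here. Figures used Python 3.11.15 and matplotlib 3.10.9. An exact two-sided permutation test of 4 against 4 arrays cannot go below p = 0.0286, the value that each of the 23 genes reached. Nothing says that the 4 samples came from separate cultures, so p-values measure no more than their spread, which may be of technical origin.

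Genes named are all that passed, the 6 just outside the threshold, the 4 largest rises and falls that missed it, genes the study names or that belong to its pathway, and the 2 members of smallest p of a list; others were chosen after their values were seen. The 37 lists come from general knowledge, and lists and genes were chosen with earlier results of these data known. The alternatives were each array left out, the 8 arrays alone, the replicate number as a block, 3 further normalizations, array weights, an intensity trend, dim probe sets left out, all probe sets kept, the methods' t-test, p-values before adjustment and a minimum fold of 1.5. Sequences were not used here.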

Additional observations from a re-analysis of the deposited data

Results flagged for a closer look

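In 50 named genes the 2 well-fed groups of 4 arrays, 100 groups in all, were searched for 1 array far from the other 3, by its gap to the nearest array over the group's range, against Dixon's critical value. The 2 groups past it were both of *Y19D10B.4*, and chance alone flags about 1 group in 20. In N2 replicate 4 the log2 value was 4.95, where the other N2 arrays had 4.65 to 4.70 (ratio 0.845). In mutant replicate 2 it was 4.0, where the other mutant arrays had 3.78 to 3.80 (ratio 0.941). The gene passed with any well-fed array left out, with log2 fold changes between -0.96 and -0.84.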

How the results depend on the processing

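The comparison as reported had 1 gene higher and 22 lower. Leaving out 1 well-fed array gave 1 to 2 higher and 15 to 19 lower. All of 15 genes, from *hmg-11* to *C36C5.15* in order of p, passed with each of the 8 arrays left out. *thn-2* was lost without mutant replicate 4 (adjusted p = 0.0513), and *F35F10.13* without N2 replicate 2 and mutant replicates 2 and 3 (at most 0.0707). The other genes kept their call only in part. *T28A11.20* kept it without N2 replicate 3 or mutant replicate 1, *T16G1.4* without N2 replicate 2 or mutant replicate 1, *F19C7.2* without N2 replicate 2 or mutant replicate 3, *T16G1.7* without N2 replicate 4, and *clec-43* and *lipl-1* without mutant replicate 3. No fold change turned its sign. The 8 arrays alone gave 2 higher and 20 lower, with 17 of the 23 among them. It lost *cct-4*, *thn-2*, *T28A11.20*, *T16G1.4*, *F19C7.2* and *lipl-1*, and gained *bath-26*, *C26E1.5*, *F55G11.2*, *lips-6* and *stdh-3*. Cyclic loess gave 2 higher and 26 lower. Array weights gave 8 higher and 37 lower, all 23 included. The methods' t-test gave 941 higher and 853 lower before adjustment and 1 and 5 after it, at p under 0.05, and limma 596 and 607 before adjustment. Median centring, quantile normalization, the intensity trend, the filter, all probe sets and the fold threshold left 1 higher and 20 to 22 lower, not always the same genes. Quantile normalization lost *clec-43*, *T16G1.4*, *T16G1.7* and *lipl-1* and gained 3 genes, the intensity trend lost *T16G1.4* and *T16G1.7* and gained 1, the filter removed *Y19D10B.4*, *bgnt-1.8*, *T28A11.20* and *T16G1.4* and gained 3, and the fold threshold removed *cct-4* and *F19C7.2*. The replicate numbers were not shown to pair the strains, since deviations of same-numbered mutant and N2 arrays correlated between -0.0699 and 0.00931. Whether they pair well-fed with starved arrays of a strain was not examined. With the replicate number as a block 1 gene was higher and 18 lower, without *clec-43*, *F19C7.2*, *T16G1.7* and *lipl-1*. The cause of these changes was not tested. Scanner intensities were not used here, so signal over background is unknown. The motif and protein comparison was not run.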
